A study of Mus musculus with 4 samples.

Results

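Purine synthesis enzymes were measured in whole embryonic mouse lung with and without an Sftpc-Nmyc transgene. The 10 genes were Prps1, Ppat, Gart, Pfas, Paics, Adsl, Atic, Impdh1, Impdh2 and Gmps. Their probe sets were those annotated with exactly 1 of these symbols and no other. In this way 6 of the 10 genes, read by 11 of the 22690 probe sets of the array, could be followed. These were Prps1, Ppat, Gart, Paics, Adsl and Impdh1, while Pfas, Atic, Impdh2 and Gmps were not analysed here. An Affymetrix probe set is a group of short probes against 1 transcript region, and its signal is a brightness on a linear scale.

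The series holds 4 arrays, 2 from Sftpc-Nmyc lungs and 2 from wild-type lungs. The transgene fuses mouse Nmyc1 (Mycn in current nomenclature) to EGFP, a fluorescent protein. Its promoter and enhancer are those of the human SFTPC gene, active in lung epithelium, so the cells that carry the misexpression are a part of the tissue measured. The transgenic embryos came from pronuclear injection into F2 eggs of C57BL/6J and DBA/2J mice, so each is a founder of its own. All 4 titles give embryonic day 18, and the design text dates the transgenic embryos alone within that day, so matched age is not certain. The strain of the wild-type embryos is not stated. The design text calls the duplicates biological replicates, and the number of arrays limits the precision of every value.

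Cells make purines in 2 ways, by salvage of used bases or anew from small molecules. In the de novo pathway, phosphoribosyl pyrophosphate (PRPP) is converted step by step to inosine monophosphate (IMP), which is then turned into AMP or GMP. The pathway is most active in dividing cells, and MYC proteins are known to bind and activate several of its genes through the E-box CACGTG.

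The promoters of Paics and Ppat are shown because these enzymes act in the same pathway and their genes are head-to-head neighbours on mouse chromosome 5. Sequences are from RefSeq, build GRCm38.p6, and run 5′ to 3′ on the strand of the gene from 250 bases before the start site to 50 bases after it. Capitals mark CACGTG, which reads the same on both strands. The windows lie at chr5:76951052-76951351 (plus strand) for Paics and chr5:76951529-76951828 (minus strand) for Ppat.
Paics: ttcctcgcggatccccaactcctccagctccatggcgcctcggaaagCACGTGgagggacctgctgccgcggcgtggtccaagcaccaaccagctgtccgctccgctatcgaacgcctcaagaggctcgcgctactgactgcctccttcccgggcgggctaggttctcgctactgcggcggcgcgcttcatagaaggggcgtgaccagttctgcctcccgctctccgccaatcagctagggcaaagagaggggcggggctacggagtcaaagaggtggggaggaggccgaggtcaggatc
Ppat: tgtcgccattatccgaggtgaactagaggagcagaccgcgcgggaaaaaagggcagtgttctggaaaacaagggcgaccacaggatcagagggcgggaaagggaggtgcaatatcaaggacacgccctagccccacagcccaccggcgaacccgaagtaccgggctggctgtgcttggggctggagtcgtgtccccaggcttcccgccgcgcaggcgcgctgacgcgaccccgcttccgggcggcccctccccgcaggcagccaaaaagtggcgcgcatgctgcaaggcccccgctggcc

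The CACGTG of Paics starts 203 bases before its start site. The start site of Ppat lies 276 bases downstream of that of Paics and Ppat runs the opposite way, so the first part of each gene overlaps the other. The same CACGTG therefore lies inside Ppat, 474 bases from its start, and not in the window printed for Ppat. Over all members, 9 of 10 genes had a window in the table and 3 of the 9 held CACGTG, against 8.09% of the 27025 genes of the table. The other two were Atic and Impdh2, whose 30 bases around the E-box are set beside those of Paics.
Paics: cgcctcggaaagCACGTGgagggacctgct
Atic: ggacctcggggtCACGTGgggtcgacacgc
Impdh2: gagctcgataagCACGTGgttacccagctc

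The 3 stretches lie at chr5:76951087-76951116, chr1:71557137-71557166 and chr9:108560314-108560343, all on the plus strand, and the motif starts 7 bases before the start site of Atic and 110 bases before that of Impdh2. Of the 6 genes with signals, Paics alone had the motif in its window. These matches describe letters in a window, and binding was not measured here.

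The arrays had medians of 65.45 to 70.8, and arrays of 1 group correlated at r = 0.965 to 0.968 over all non-control probe sets, against 0.922 to 0.933 between groups. The transgene's own gene, Mycn, was read at deposited signals of 455.2 and 356 in Sftpc-Nmyc lungs, against 34.7 and 32.1 in wild-type lungs (probe set 1425922_a_at). Another of its probe sets, 1417155_at, went the other way, with 25.1 and 27.2 in Sftpc-Nmyc lungs, against 78.7 and 63.5 in wild-type lungs. Probe set 1425923_at of Mycn overlapped between groups, with 61.8 and 43.8 in Sftpc-Nmyc lungs, against 57.3 and 18.8 in wild-type lungs. With the mean of all 3 probe sets the log2 fold change of Mycn was 0.97, against 3.46 on 1425922_a_at. The position of these probe sets in the transcript was not determined here. The lung markers Sftpc, Sftpb and Scgb1a1, which encode secreted proteins of lung epithelium, were bright on all 4 arrays, at 590.9 or more. All 3 were lower in Sftpc-Nmyc lungs, with log2 fold changes of -0.997, -2.85 and -1.58. Sftpa1 and Sftpd of the same list were lower too, at 347.4 and 326 on Sftpc-Nmyc replicate 2. Of the 9 markers of that list, 3 were higher, as given below. Xist, the RNA of the inactive X chromosome, had 59.3 and 63.9 in Sftpc-Nmyc lungs, against 1707.8 and 1506.1 in wild-type lungs. Y-linked Eif2s3y had 58.0 and 61.7, against 3.1 and 0.8. Sex and genotype therefore cannot be told apart here.

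The comparison of Sftpc-Nmyc with wild-type lungs asks what Nmyc misexpression changes in the lung. Of the 6 purine synthesis genes, 5 were higher in Sftpc-Nmyc lungs, none was lower and Impdh1 did not pass. Across all 8675 genes tested, 14.7% were called higher, at a Benjamini-Hochberg adjusted p under 0.05 from limma. The rises ran from 0.76 for Prps1 to 1.54 for Gart on the log2 scale, which is 1.69-fold to 2.90-fold. The median log2 fold change was 0.99 over the 6 genes, against -0.021 over all genes tested. Of the 11 probe sets, 10 were called higher, against 13.5% of the 14266 probe sets tested. The same 10 had both Sftpc-Nmyc arrays above both wild-type arrays, as did 32.7% of all probe sets tested. They include 1428543_at of Ppat, whose wild-type mean lay below the filter, so it had to differ in this direction to be tested. In whole lung, a change in the share of a cell type and a change in RNA per cell cannot be told apart.

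**Figure D1:**
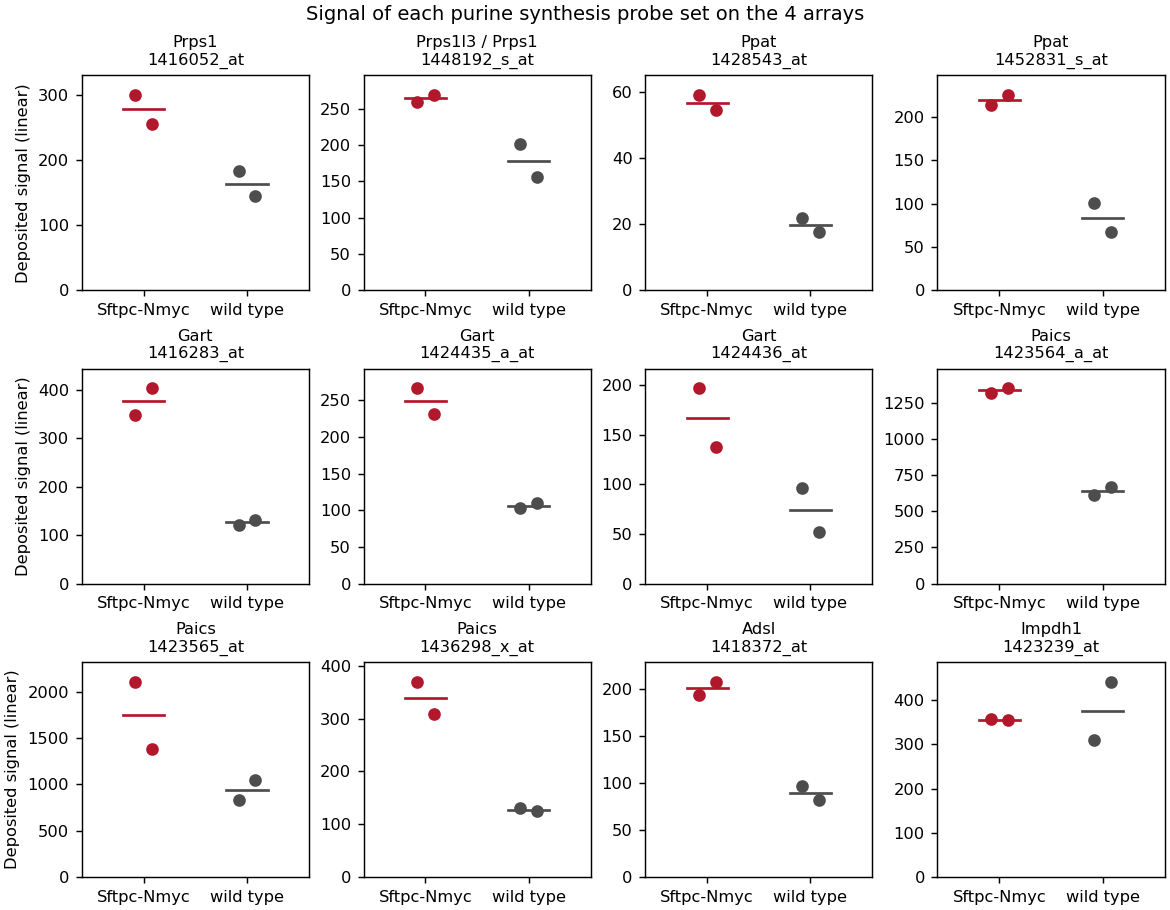
Deposited signal (linear, no unit) of the 11 purine synthesis probe sets and of 1 probe set shared by Prps1l3 and Prps1, with the 2 Sftpc-Nmyc arrays left and the 2 wild-type arrays right in each panel; points are arrays and bars are group means. Each axis starts at 0 and has its own scale, and both Sftpc-Nmyc points lie above both wild-type points in every panel but that of Impdh1.

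Prps1 encodes PRPP synthetase 1, which makes the activated ribose on which the purine ring is built. It had deposited signals of 300.4 and 256.5 in Sftpc-Nmyc lungs, against 183.1 and 144.5 in wild-type lungs. The groups did not overlap, although the arrays of a group differed visibly. Prps1 rose by 0.76 ± 0.18 on the log2 scale (SE, n = 2 per group; limma adjusted p = 0.015), the smallest rise among the 5 called members. The call ended without Sftpc-Nmyc replicate 1 (0.65, limma adjusted p = 0.078) or wild-type replicate 2 (0.60, limma adjusted p = 0.096). Prps1 lies on the X chromosome, and it was higher in the group where Xist, given above, was lower. The part of the Xist difference in the result for Prps1 was not tested.

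Ppat is the amidotransferase that commits PRPP to purine synthesis. Its brighter probe set, 1452831_s_at, had 214.3 and 225.3 in Sftpc-Nmyc lungs, against 100.7 and 66.7 in wild-type lungs. The Sftpc-Nmyc arrays lay close together, and each was above the higher wild-type array by more than the gap between the wild-type arrays. Ppat rose by 1.39 ± 0.21 (log2, SE; limma adjusted p = 0.0030), and its 95% interval ran from 0.89 to 1.88. The suffix _s_at marks a probe set that can match transcripts of more than 1 gene.

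The other probe set of Ppat, 1428543_at, was dim. It had 59.2 and 54.6 in Sftpc-Nmyc lungs, against 22 and 17.6 in wild-type lungs, all under 73.4, the maximum over 27 control probe sets for Bacillus genes. Its log2 fold change was 1.41 ± 0.31 (SE; limma adjusted p = 0.014 in the fit over probe sets), near that of the brighter one. Its wild-type mean lay below the filter on dim probe sets, so it entered the test through the Sftpc-Nmyc arrays and had to differ in this direction.

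Gart encodes a single protein with 3 enzyme activities of the early pathway. It showed the largest change of the 6 genes: probe set 1416283_at had 349.4 and 403.4 in Sftpc-Nmyc lungs, against 122.0 and 132.3 in wild-type lungs. The wild-type arrays nearly coincided and the Sftpc-Nmyc arrays stood far above them. Gart rose by 1.54 ± 0.16 (log2, SE; limma adjusted p = 0.00073), a 2.90-fold change with a 95% interval of 1.17 to 1.90 on the log2 scale.

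Its other probe sets also passed. Probe set 1424435_a_at of Gart had 266.2 and 230.8 in Sftpc-Nmyc lungs, against 103.1 and 109.7 in wild-type lungs, a rise of 1.19 ± 0.17 (log2, SE; limma adjusted p = 0.0027). Probe set 1424436_at of Gart had 196.6 and 137.6, against 96.1 and 52.0, a rise of 1.18 ± 0.30 (log2, SE; limma adjusted p = 0.025). The last is the noisiest of the 3, with arrays of 1 group differing by over 40 units, and its call ended without Sftpc-Nmyc replicate 1 (limma adjusted p = 0.12), without wild-type replicate 2 (0.12), with no filter (0.085) or with no variance trend (0.056).

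**Figure D2:**
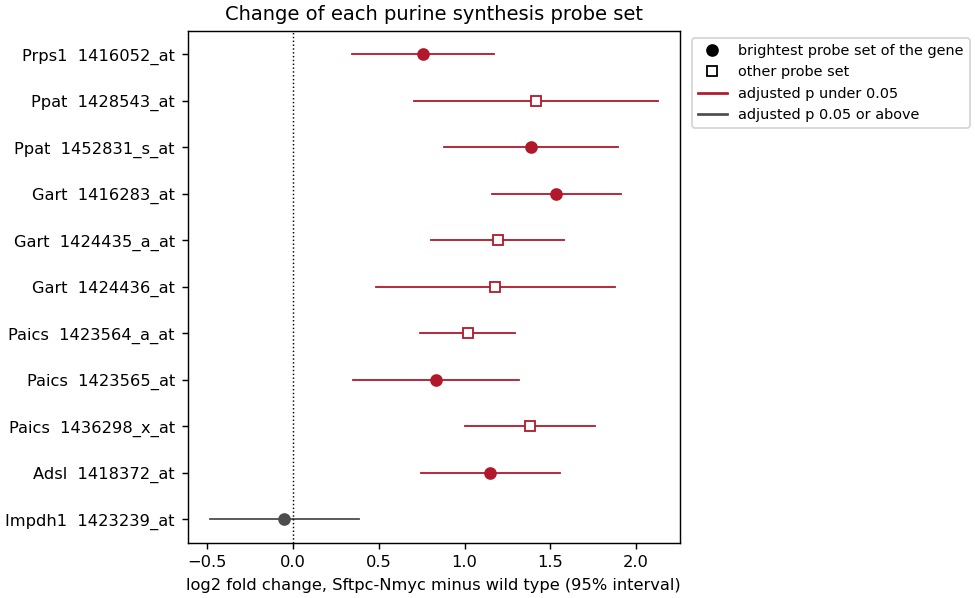
log2 fold change, Sftpc-Nmyc minus wild type, of the 11 purine synthesis probe sets from the limma fit over all probe sets, with 95% intervals as lines; filled circles stand for the brightest probe set of a gene and open squares for the others. Values of 10 probe sets lie between 0.76 and 1.54 with intervals above 0, and that of Impdh1 lies at -0.051 with an interval across 0.

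Paics joins a carboxylase and a synthetase of the middle steps in 1 protein. Its 3 probe sets rose by different amounts. Probe set 1423564_a_at had 1321 and 1349.5 in Sftpc-Nmyc lungs, against 611.8 and 665.5 in wild-type lungs. Both groups were tight, and Paics rose by 1.02 ± 0.12 here (log2, SE; limma adjusted p = 0.0015 in the fit over probe sets).

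Probe set 1436298_x_at of Paics had 370 and 309.6 in Sftpc-Nmyc lungs, against 130 and 124.1 in wild-type lungs, a rise of 1.38 ± 0.16 (log2, SE; limma adjusted p = 0.0016). The suffix _x_at marks a probe set with probes that may also bind other transcripts. Probe set 1423565_at, the brightest and so the one that stood for Paics in the fit over genes, had 2109.5 and 1383.7 in Sftpc-Nmyc lungs, against 835.9 and 1043.1 in wild-type lungs. The groups did not overlap, but Sftpc-Nmyc replicate 1 stood well above replicate 2. The rise was 0.83 ± 0.20 (log2, SE; limma adjusted p = 0.019 over all genes).

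The call for Paics by its brightest probe set ended without Sftpc-Nmyc replicate 1 (0.52, limma adjusted p = 0.064), without wild-type replicate 1 (0.68, 0.13) or without wild-type replicate 2 (0.98, 0.065). It ended also with no filter on dim genes (limma adjusted p = 0.061) and with no trend of variance on mean (0.056). The other probe sets of Paics, 1423564_a_at and 1436298_x_at, stayed past the threshold in all 12 alternatives run, with a highest limma adjusted p of 0.017 and 0.019. With the mean of all 3 probe sets, Paics stood at 1.08 (limma adjusted p = 0.0020).

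Although Paics and Ppat start within 276 bases of each other, their levels cannot be compared on an array. The log2 difference Paics minus Ppat was 3.26 and 2.57 in Sftpc-Nmyc lungs, against 3.05 and 3.90 in wild-type lungs. The groups overlapped, and the difference between them was -0.55 (exact two-sided permutation p = 0.67, where 2 arrays against 2 allow no p below 0.33).

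Adsl encodes adenylosuccinate lyase, which acts both on the way to IMP and on the way from IMP to AMP. It had 193.8 and 207.4 in Sftpc-Nmyc lungs, against 96.6 and 81.5 in wild-type lungs, on its only probe set, 1418372_at. Each Sftpc-Nmyc array was above both wild-type arrays by a wide margin. Adsl rose by 1.15 ± 0.17 (log2, SE; limma adjusted p = 0.0026), with a 95% interval of 0.75 to 1.55.

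Impdh1 encodes an IMP dehydrogenase, which opens the branch to GMP and has a close relative in Impdh2. It had 358.3 and 354.1 in Sftpc-Nmyc lungs, against 310.2 and 441.6 in wild-type lungs (probe set 1423239_at). The Sftpc-Nmyc values lay between those of the wild-type arrays. The log2 fold change was -0.051 ± 0.19 (SE; limma adjusted p = 0.86), with a 95% interval of -0.48 to 0.38. Its sign turned with each array centred on its median (0.016) and without wild-type replicate 2 (0.20).

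Impdh1 acts on the product to which Adsl contributes, and the pair was compared after their values were seen. The log2 difference Adsl minus Impdh1 was -0.86 and -0.76 in Sftpc-Nmyc lungs, against -1.65 and -2.37 in wild-type lungs. The groups did not overlap, and the difference between them was 1.20 (exact two-sided permutation p = 0.33, the smallest that 2 arrays against 2 allow). The upper limit for Impdh1, 0.38, lay below the lower limits of Gart, Ppat and Adsl. It lay above those of Prps1 (0.35) and Paics (0.36). Differences in size among the 5 called genes were not tested.

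**Figure D3:**
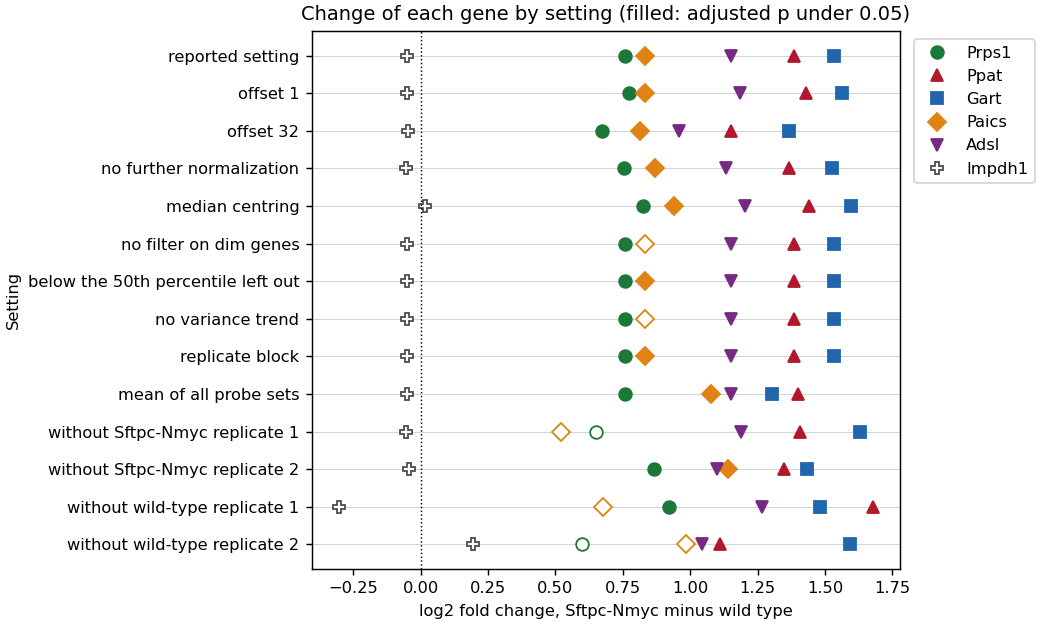
log2 fold change, Sftpc-Nmyc minus wild type, of the 6 purine synthesis genes (markers) under the reported setting and 13 alternatives (rows), where filled markers have a limma adjusted p under 0.05. Gart, Ppat and Adsl are filled in every row, Prps1 is open in 2 rows and Paics in 5. Impdh1 is an open marker in every row, at -0.30 to 0.20.

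The 3 genes that passed in all 13 alternatives were Gart, Ppat and Adsl, with limma adjusted p of at most 0.015, 0.023 and 0.027. The count of members called higher was 5 in the reported fit, 3 without Sftpc-Nmyc replicate 1, 5 without Sftpc-Nmyc replicate 2, 4 without wild-type replicate 1 and 3 without wild-type replicate 2. The members lost were Paics and, where 3 remained, Prps1 as well.

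Genes next to the members in purine metabolism were read from 5 lists, which were chosen with earlier results of these data known. Of 36 genes measured 29 were tested, 12 were higher, 2 were lower and 15 did not pass, against 14.7% called higher and 15.7% called lower over all genes. The median log2 fold change of the 29 was 0.20. In the list of the adenylate branch and PRPP partners, 2 of 4 genes tested were higher (Prps2 and Prpsap1) and none was lower. Prps2, the second PRPP synthetase, had 274.9 and 217.8 in Sftpc-Nmyc lungs, against 143.9 and 168.0 in wild-type lungs, a rise of 0.63 ± 0.18 (log2, SE; limma adjusted p = 0.033). Its other probe set, 1420638_at, had 108.4 and 103.8 in Sftpc-Nmyc lungs, against 54.6 and 44.4 in wild-type lungs (1.08 ± 0.21; limma adjusted p = 0.0088 among probe sets). These wild-type signals were under 73.4, in the range of the Bacillus controls. Prps2 is X-linked, as is Prps1, and the part of the Xist difference in its result was not tested. The call for Prps2 ended without any 1 of 3 arrays (Sftpc-Nmyc replicate 1, wild-type replicates 1 and 2; limma adjusted p = 0.074 to 0.17), in a fit blocked on replicate number (0.060), with no filter (0.065) and with no variance trend (0.056).

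Prpsap1, a protein associated with PRPP synthetase, rose by 0.60 ± 0.16 (log2, SE; limma adjusted p = 0.024), a call that ended without any 1 of 3 arrays (Sftpc-Nmyc replicate 2 and either wild-type array; 0.071 to 0.12) and with no variance trend (0.051). Its relative Prpsap2 did not pass (0.33 ± 0.17), nor did Adss, the synthase that leads from IMP towards AMP (0.37 ± 0.13; limma adjusted p = 0.073). The log2 difference Prps1 minus Prps2 was 0.13 and 0.24 in Sftpc-Nmyc lungs, against 0.33 and -0.22 in wild-type lungs. The groups overlapped, with a difference of 0.13 between them (exact two-sided permutation p = 1), which became -0.098 with the mean of all probe sets.

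In salvage, 2 of 4 genes tested were higher and none was lower, against 14.7% called higher and 15.7% called lower over all genes. Hprt, which recovers hypoxanthine and guanine and is X-linked, had 663.1 and 602.4 in Sftpc-Nmyc lungs, against 382.8 and 387.9 in wild-type lungs, a rise of 0.69 ± 0.13 (log2, SE; limma adjusted p = 0.0069). Aprt, which recovers adenine, rose by 0.57 ± 0.12 on probe set 1451703_s_at (log2, SE; limma adjusted p = 0.011). On probe set 1423801_a_at Aprt overlapped between groups, with 763.3 and 927.7 in Sftpc-Nmyc lungs, against 933.5 and 486.8 in wild-type lungs (0.29 ± 0.29). That probe set stood for the gene in the fits without wild-type replicate 2, where Aprt turned to -0.20 (limma adjusted p = 0.48), and without Sftpc-Nmyc replicate 1 (0.43, limma adjusted p = 0.40). With the mean of both probe sets Aprt did not pass (limma adjusted p = 0.11). Adenosine kinase, Adk, and deoxyguanosine kinase, Dguok, did not pass, at -0.36 ± 0.15 and -0.14 ± 0.20.

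**Figure D4:**
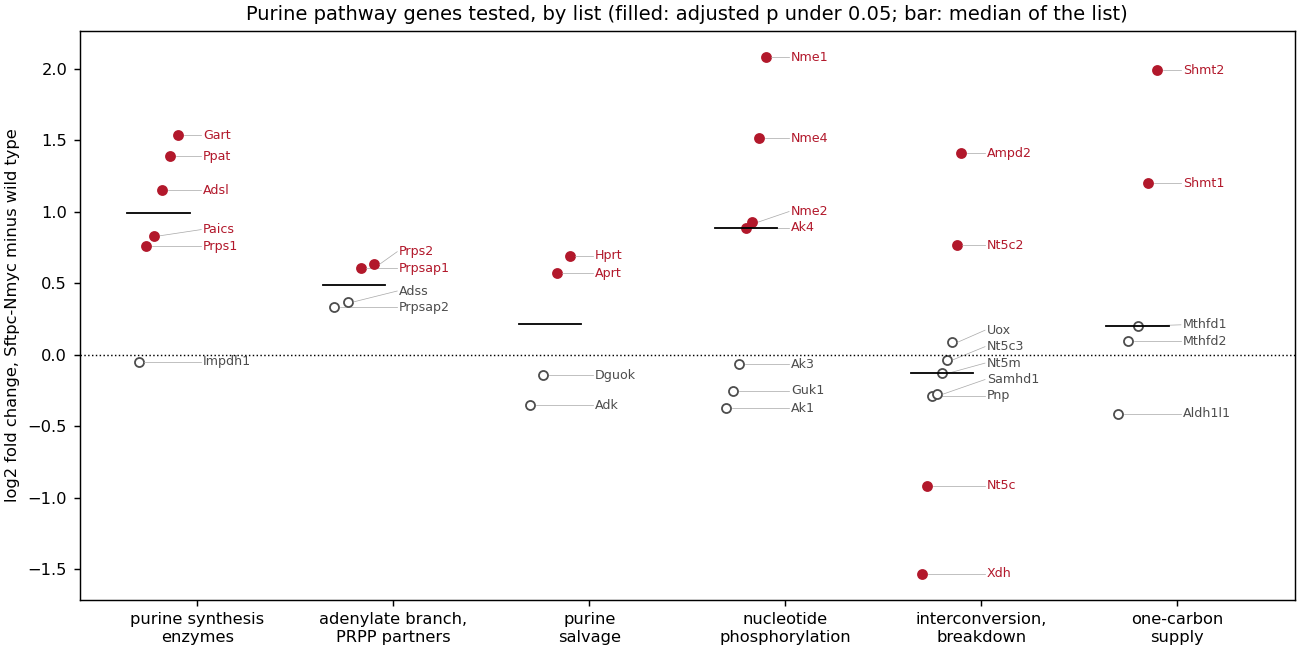
log2 fold change, Sftpc-Nmyc minus wild type, of each tested gene in the purine synthesis set and in 5 lists of neighbouring purine genes; filled points have a limma adjusted p under 0.05 over all genes and bars are list medians. The medians run from 0.99 for the synthesis enzymes to -0.13 for interconversion and breakdown, and the 2 filled points below 0 are Xdh and Nt5c.

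Among kinases that carry nucleotides to diphosphates and triphosphates, 4 of 7 genes tested were higher and none was lower. The shares over all genes were 14.7% higher and 15.7% lower. Nme1, a nucleoside diphosphate kinase, had 697.2 and 921.1 in Sftpc-Nmyc lungs, against 194.9 and 172.3 in wild-type lungs, a rise of 2.08 ± 0.17 (log2, SE; limma adjusted p = 0.00039). Nme4, its mitochondrial relative, rose by 1.51 ± 0.21 and Nme2 by 0.93 ± 0.16. The adenylate kinase Ak4 rose by 0.89 ± 0.24 (limma adjusted p = 0.028). On the same probe set, Ak4 did not pass with wild-type replicate 1 left out (0.77; limma adjusted p = 0.15), with no filter (0.074) or with no variance trend (0.056). Another probe set, 1421830_at, stood for Ak4 without Sftpc-Nmyc replicate 1 (0.46, limma adjusted p = 0.15) or wild-type replicate 2 (0.78, limma adjusted p = 0.12), and the call ended there too. With the mean of its probe sets Ak4 was at 0.19 (limma adjusted p = 0.67). The kinases Guk1, Ak1 and Ak3 did not pass, at -0.25, -0.37 and -0.067.

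Of 9 interconversion and breakdown genes tested, 2 were higher and 2 lower, against 14.7% called higher and 15.7% called lower over all genes, and their median log2 fold change was -0.13. Xdh, xanthine dehydrogenase, an enzyme of purine breakdown, had 68.4 and 45.6 in Sftpc-Nmyc lungs, against 153.7 and 201.2 in wild-type lungs. The groups were far apart, and Xdh fell by 1.53 ± 0.25 (log2, SE; limma adjusted p = 0.0035). Both Sftpc-Nmyc signals of Xdh were under 73.4, in the range of the Bacillus controls. Nt5c, a nucleotidase, fell by 0.92 ± 0.16 (limma adjusted p = 0.0053).

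The AMP deaminase Ampd2, which returns AMP to IMP, had 292.2 and 355.7 in Sftpc-Nmyc lungs, against 114.2 and 124.1 in wild-type lungs, a rise of 1.41 ± 0.17 (log2, SE; limma adjusted p = 0.0012). Its other probe set, 1426757_at, did not pass (limma adjusted p = 0.051 among probe sets). Nt5c2, another nucleotidase, rose by 0.76 ± 0.19 on 1 of 3 probe sets (limma adjusted p = 0.019), and the others, 1417201_at and 1448614_at, did not pass (0.42 and 0.81 among probe sets). The call for Nt5c2 ended without any 1 of 3 arrays (Sftpc-Nmyc replicate 2 and either wild-type array; 0.071 to 0.12) and with the mean of its probe sets (0.15). Pnp, the purine nucleoside phosphorylase, did not pass, at -0.29 ± 0.15.

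Folate enzymes supply the formyl groups of the purine ring. Of 5 tested, 2 were higher and none was lower, against 14.7% called higher and 15.7% called lower over all genes. Shmt2, the mitochondrial serine hydroxymethyltransferase, had 779.6 and 726.5 in Sftpc-Nmyc lungs, against 182.8 and 187.8 in wild-type lungs on its brightest probe set, a rise of 1.99 ± 0.14 (log2, SE; limma adjusted p = 0.00018). Probe set 1426423_at of Shmt2 also rose, by 1.64 ± 0.16 (limma adjusted p = 0.00080 among probe sets). The other 2 were dim and overlapped between groups. Probe set 1434204_x_at had 77.3 and 27.2 in Sftpc-Nmyc lungs, against 16.8 and 31.7 in wild-type lungs, and did not pass (0.94 ± 0.51; limma adjusted p = 0.22 among probe sets). Probe set 1455985_x_at had 21.4 and 42.3 in Sftpc-Nmyc lungs, against 13.8 and 39.9 in wild-type lungs, and was not tested. With the mean of all 4 probe sets Shmt2 was at 1.24 (limma adjusted p = 0.0073).

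Shmt1, its cytosolic relative, had 233.4 and 165 in Sftpc-Nmyc lungs, against 90.1 and 77.8 in wild-type lungs on its brightest probe set, and rose by 1.20 ± 0.21 (log2, SE; limma adjusted p = 0.0048). The size of that rise was not settled. On its other probe sets, 1425178_s_at, 1422198_a_at and 1425179_at, the wild-type signals were all under 73.4, in the range of the Bacillus controls, and 1425179_at entered the test through the Sftpc-Nmyc arrays. Probe set 1425179_at stood for Shmt1 in the fits without wild-type replicate 1 (3.78) or wild-type replicate 2 (3.25). The value was 0.95 without Sftpc-Nmyc replicate 1, 1.44 without Sftpc-Nmyc replicate 2 and 2.19 with the mean of all probe sets, and Shmt1 passed in each of these fits.

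Mthfd1, which makes 10-formyltetrahydrofolate in the cytosol, did not pass (0.20 ± 0.17), nor did Mthfd2 (0.093 ± 0.19).

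Markers of dividing cells moved with the purine genes. Counts of markers are of those tested, to be read beside 14.7% called higher and 15.7% called lower over all genes. Sums are of deposited signals over all measured markers of a list. All 7 markers of dividing cells tested were called higher. Their summed signal was 5176 and 5417 in Sftpc-Nmyc lungs, against 2436 and 1651 in wild-type lungs. Of 9 lung epithelial markers 3 were higher (Epcam, Cdh1 and Foxa2) and 5 lower (Sftpa1, Sftpb, Sftpc, Sftpd and Scgb1a1). The sums of this list were 15057 and 10349, against 26322 and 29920. Sftpc was the largest part of each sum, at 5788.1 and 4817.4, against 9566.4 and 9545.8, so the sums do not follow the markers that rose. Endothelial markers were lower in 6 of 6 (1682 and 1742, against 4632 and 5094), mesenchymal in 5 of 6 (6523 and 7588, against 11313 and 12107) and macrophage in 3 of 5 (554 and 545, against 1189 and 1321). Cardiac muscle markers were lower in 7 of 8 (533 and 711, against 3214 and 2071) and erythroid in 2 of 2 (424 and 432, against 2333 and 2158). The Sftpc-Nmyc means of cardiac Myh6, Tnnt2, Tnni3 and Ryr2 lay below the filter on dim genes. Each of these therefore had to be lower to be tested. Liver and thymus markers were dim, with 1 of each tested, both lower (65.1 and 87.4, against 148 and 194, and 90.1 and 105, against 161 and 165), and Fgb of liver and Rag1 of thymus were at 6.9 or less on every array. The thymus marker tested, Thy1, also had an Sftpc-Nmyc mean below the filter, so it had to be lower to be tested. The liver marker tested, Alb, did not pass in 4 of 12 alternatives. The part of these cell types in the purine results was not tested.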

How the data were processed

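Biotin-labelled total RNA of whole lung was hybridised to Affymetrix arrays, per the labels' protocols. The values the authors deposited are linear intensities, with 1 value for each probe set on each array. The sources used here name neither the software nor the background correction. Each array has the same mean, 150.05, once 2% of values at each end are left out. Detection calls were not used here. Symbols came from the platform annotation (20380 probe sets with 1 symbol, 691 with several, 1555 with none, 64 controls), checked by gene identifier against RefSeq.

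Values under 1 were set to 1, 5 was added, log2 was taken and arrays were quantile normalized. Fold changes on this scale understate changes of dim genes. Each of 12393 genes was represented by its brightest probe set, and genes below the 30th percentile were left out. All 6 genes and 11 probe sets described were above it. Linear models used limma 3.58.1 under R 4.3.3 (trend of variance on mean, group as the only term), over 8675 genes and, separately, over 14266 probe sets, with Benjamini-Hochberg adjustment at 0.05. The code was tested on simulated data. Alternatives were another offset (1 or 32), normalization, filter, variance model, replicate block, probe set average, and leaving out each array.

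Members and lists were chosen with earlier results of these data known. Named were all members, of the neighbouring lists every called gene (others where they complete a pair or a list), and Mycn. Of the marker lists the rule allowed up to 3 genes each by size of the statistic. Sftpc, Sftpd, Scgb1a1, Foxa2, Cdh1, Eif2s3y, Tnni3, Ryr2, Fgb and Rag1 were named outside it.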

Additional observations from a re-analysis of the deposited data

Results flagged for a closer look

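A signal outside the tests came from probe set 1448192_s_at, which is annotated to both Prps1l3 and Prps1 and so entered no fit. It had deposited signals of 259.6 and 268.9 in Sftpc-Nmyc lungs, against 201.7 and 155.5 in wild-type lungs. Both Sftpc-Nmyc arrays were above both wild-type arrays, and the log2 difference was 0.56, beside 0.76 for the probe set of Prps1 alone. Which of the 2 genes it reads was not tested.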

How the results depend on the processing

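Leaving out each array in turn gave 3 to 5 members called higher (5 with all arrays) and 6 to 9 probe sets (10 with all arrays). These fits hold 1 array in a group, whose spread is assumed to be that of the other group. With Sftpc-Nmyc replicate 1 or replicate 2 left out, 1428543_at of Ppat fell below the filter and was not tested. The same held with the filter at the 50th percentile. Over the 6 members and 11 probe sets, 184 of the values under alternatives kept direction and side of the threshold. Another 19 no longer passed and 4 turned sign. The brightest probe set of a gene stands in both fits, so many of these values are counted in both. All 4 that turned were of Impdh1, at 0.016 with median centring and 0.20 without wild-type replicate 2, in each fit. Without wild-type replicate 1 Impdh1 kept its sign, at -0.30. No member was called lower under any alternative. Aprt ran from -0.20 to 0.61 without 1 array, where its brightest probe set changed. Prps1 minus Prps2 turned to -0.098 with the mean of all probe sets. Replicate numbers did not pair the arrays (correlation of deviations -0.042), and a replicate block gave 5 members and 10 probe sets called higher. With 11 of the neighbouring genes called higher under the block, against 12 without it, the call lost was that of Prps2. Over all genes, calls in either direction numbered 2636, and 1379 to 1906 without 1 array. Apart from the arrays left out, no setting changed a count of members or neighbouring genes by more than 1.5 times. Signals under 73.4, as for 1428543_at of Ppat, lie in the range of the Bacillus controls. Wild-type replicate 2 also lay there on 1452831_s_at of Ppat (66.7) and 1424436_at of Gart (52).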
